A study of Danio rerio with 4 samples.

Results

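Mitochondrial fatty acid beta oxidation was followed through 10 zebrafish genes of the carnitine shuttle (cpt1ab, cpt1b and cpt2), the acyl-CoA dehydrogenases (acadvl, acadl and acadm), the trifunctional protein (hadhaa, hadhab and hadhb) and the short-chain hydroxyacyl-CoA dehydrogenase (hadh). They were picked by gene symbol from a table of 27472 genes, and all 10 symbols were found there, each under 1 Ensembl identifier. RNA came from AB strain zebrafish larvae collected 72 hours after fertilization (hpf). One group was kept from 4 hpf in 4 µM bisphenol C (BPC, a bisphenol) and the other in dimethyl sulfoxide (DMSO, the solvent control), with 2 libraries in each group, numbered 1 and 3. The labels name no tissue, no number of larvae per library and no clutch, so a p-value here measures only library-to-library spread, which may be technical. Values are the authors' FPKM (fragments scaled by transcript length and by mapped fragments), which can be compared between genes.

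Long-chain fatty acids cannot cross the inner mitochondrial membrane as acyl-CoA. A carnitine palmitoyltransferase of the outer membrane (CPT1) hands the chain to carnitine, a carrier takes the acylcarnitine across, and CPT2 on the inner side turns it back into acyl-CoA. Each round of beta oxidation then runs through a dehydrogenase, a hydratase, a hydroxyacyl dehydrogenase and a thiolase, and releases acetyl-CoA for the tricarboxylic acid (TCA) cycle and the ketone bodies. In mammals, heart, oxidative muscle, liver and kidney tubule rely strongly on this pathway, and inherited loss of its enzymes causes disorders of fasting, heart and muscle.

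FPKM totals were 422245 and 425611 in BPC and 355583 and 355364 in DMSO, and the number of reads behind them is unknown. Of 19873 genes tested with limma on log2(FPKM + 1), 3480 were lower in BPC (17.5%) and 1404 higher (7.06%) at an adjusted p of 0.05, and the median log2 change of all tested genes was -0.12. Quantile normalization, median centring and TPM scaling (FPKM rescaled so that every library has the same total) moved that median by 0.14, 0.15 and -0.24. Fewer cells of a type and less RNA per cell cannot be told apart in these libraries.

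Transcripts of the beta oxidation genes were lower in BPC larvae in the carnitine shuttle, among the dehydrogenases and in the trifunctional protein. Of the 10 genes, 9 fell and 0 rose, where 17.5% of all tested genes fell. Among the 10221 tested genes with a mean level within the range of these 10, the share that fell was 15.7%. The mean level in BPC was between 38.7% (hadhaa) and 82.6% (acadvl) of that in DMSO. The median log2 change of the 10 was -0.66, against -0.12 over all tested genes. In all 10, both BPC libraries lay below both DMSO libraries, as they did for 45.1% of all tested genes. The 10 genes summed to 163 and 167 FPKM in BPC and 261 and 260.4 FPKM in DMSO. After scaling every library to the same total (TPM), the sums were 385 and 391 in BPC, against 733 and 733 in DMSO.

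**Figure D1:**
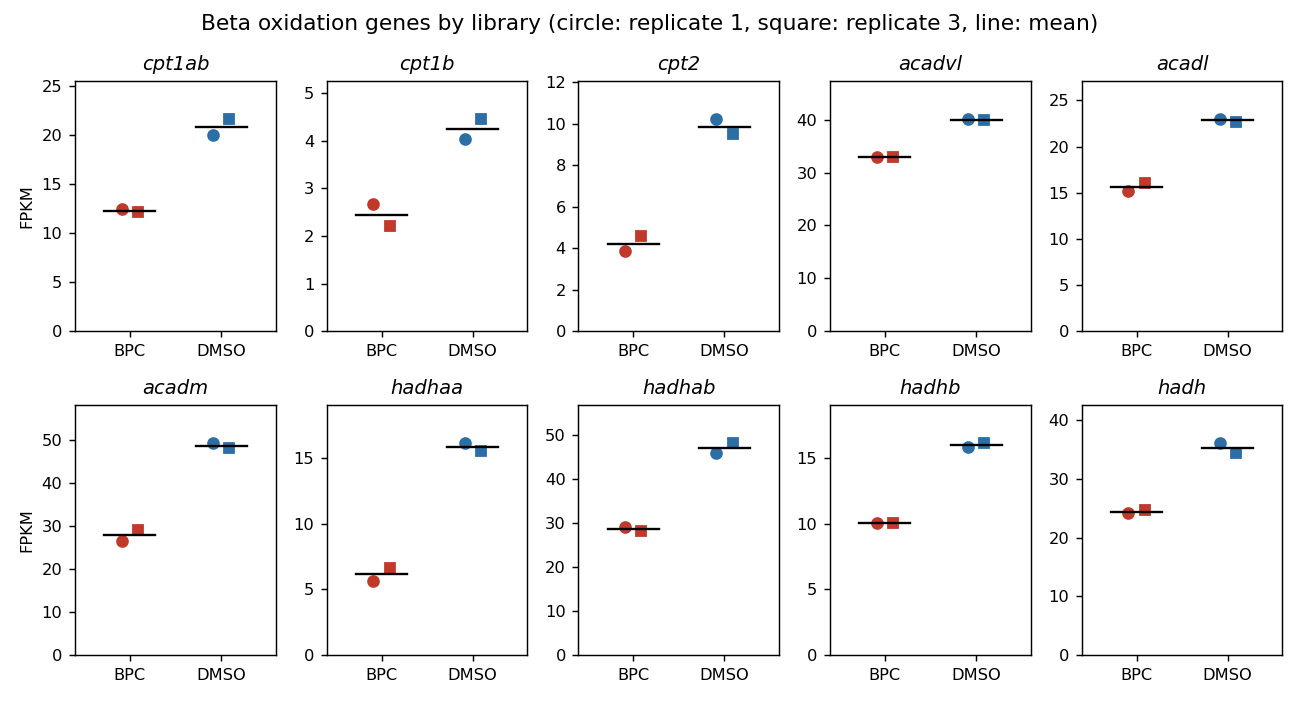
FPKM of the 10 beta oxidation genes in each library, BPC on the left and DMSO on the right of each panel, with circles for replicate 1, squares for replicate 3 and a line at the mean; each vertical axis starts at 0. In every panel both BPC libraries lie below both DMSO libraries, with the largest change relative to the DMSO level for hadhaa (5.62 and 6.65 against 16.2 and 15.6 FPKM) and the smallest for acadvl (33.0 and 33.0 against 40.1 and 39.9 FPKM).

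The carnitine shuttle genes fell, cpt2 most. The inner membrane enzyme gene cpt2 (ENSDARG00000038618) had 3.84 and 4.57 FPKM in BPC, against 10.2 and 9.50 FPKM in DMSO (log2 change -1.06, SE 0.13, limma adjusted p = 0.00434). Its BPC level was 42.7% of the DMSO level, and the groups lay far apart compared with the gap inside each pair. The liver-type CPT1 gene cpt1ab (ENSDARG00000062054) had 12.5 and 12.1 FPKM in BPC and 20.0 and 21.6 FPKM in DMSO (log2 change -0.71, SE 0.11, limma adjusted p = 0.00749). The muscle form cpt1b (ENSDARG00000058285) was the lowest of the 10 genes, at 2.68 and 2.20 FPKM in BPC and 4.03 and 4.45 FPKM in DMSO (log2 change -0.61, SE 0.14, limma adjusted p = 0.0247). At these levels its groups are separate but close, and the cpt1b call was also lost with no filter on low values (adjusted p = 0.0615), quantile normalization (0.0679) and median centring (0.0564). The other liver-type copy, cpt1aa, had 6.33 and 7.05 FPKM in BPC and 10.0 and 9.33 FPKM in DMSO and fell too (log2 change -0.47, SE 0.12, limma adjusted p = 0.0317). The cpt1aa call was lost under 7 of the 14 alternatives: with no filter (adjusted p = 0.0578), quantile normalization (0.0591), median centring (0.0967) and upper quartile scaling (0.0532), and when DMSO replicate 1 (0.23), DMSO replicate 3 (0.143) or BPC replicate 1 (0.0588) was left out. The 3 CPT1 copies added before the fit gave a log2 change of -0.67 (limma adjusted p = 0.00738).

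The carrier between these enzymes did not pass the test. The carnitine-acylcarnitine carrier gene slc25a20 had 25.9 and 25.2 FPKM in BPC and 25.9 and 27.5 FPKM in DMSO (log2 change -0.06, SE 0.10, limma adjusted p = 0.682), and it was chosen for naming after its values were seen. Both BPC libraries lay below both DMSO libraries, by less than the rounding of the nearest pair, and the sign turned with median centring (log2 change 0.09). Of 6 tested genes in the list of other carnitine genes (9 listed), 2 fell, crata and cpt1aa, and 0 rose. The list median was a log2 change of -0.18, and of all tested genes 17.5% fell and 7.06% rose. The mitochondrial and peroxisomal acetyl carnitine transferase gene crata had 3.60 and 3.03 FPKM in BPC and 6.37 and 6.08 FPKM in DMSO (log2 change -0.75, limma adjusted p = 0.0117). With either DMSO library left out 0 genes of this list passed. The count was 1 (crata) with BPC replicate 1 left out, and 1 each with no filter, quantile normalization, median centring and upper quartile scaling.

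The acyl-CoA dehydrogenases, which take the first step on chains of different length, differed in size of change. The medium-chain gene acadm (ENSDARG00000038900), the human counterpart of which is tested for in newborn screening, had 26.6 and 29.1 FPKM in BPC, against 49.3 and 48.1 FPKM in DMSO (log2 change -0.79, SE 0.10, limma adjusted p = 0.00556). The long-chain gene acadl (ENSDARG00000088357) had 15.2 and 16.0 FPKM in BPC and 23.0 and 22.7 FPKM in DMSO (log2 change -0.52, SE 0.10, limma adjusted p = 0.0162). Both fell, with groups that did not overlap. The very-long-chain gene acadvl (ENSDARG00000016687), which sits on the inner membrane, had 33.0 and 33.0 FPKM in BPC and 40.1 and 39.9 FPKM in DMSO. Its groups did not overlap either, but the change was smaller and did not pass (log2 change -0.27, SE 0.10, limma adjusted p = 0.0896). It passed under 1 of 14 alternatives, TPM scaling (log2 change -0.52, limma adjusted p = 0.012).

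The trifunctional protein, which is built of alpha and beta subunits and carries out the last 3 steps on long chains, had its alpha subunit split over 2 gene copies. The copy hadhaa (ENSDARG00000057128) had the largest change of the 10 genes, with 5.62 and 6.65 FPKM in BPC, against 16.2 and 15.6 FPKM in DMSO (log2 change -1.24, SE 0.12, limma adjusted p = 0.0025). The more abundant copy hadhab (ENSDARG00000060594) had 28.9 and 28.1 FPKM in BPC and 45.9 and 48.1 FPKM in DMSO (log2 change -0.70, SE 0.10, limma adjusted p = 0.00673). Both copies fell. The beta subunit gene hadhb (ENSDARG00000102055), which carries the thiolase, had 10.0 and 10.0 FPKM in BPC and 15.8 and 16.1 FPKM in DMSO and fell (log2 change -0.62, SE 0.10, limma adjusted p = 0.0102). In the RefSeq table of assembly GRCz12tu, hadhb and hadhaa are direct neighbours, and no other pair of the 10 genes is. No coordinates are printed, since the build behind the deposited values is unknown. The dehydrogenase gene for shorter chains, hadh (ENSDARG00000030765), had 24.1 and 24.6 FPKM in BPC and 36.1 and 34.3 FPKM in DMSO and fell (log2 change -0.51, SE 0.10, limma adjusted p = 0.016).

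**Figure D2:**
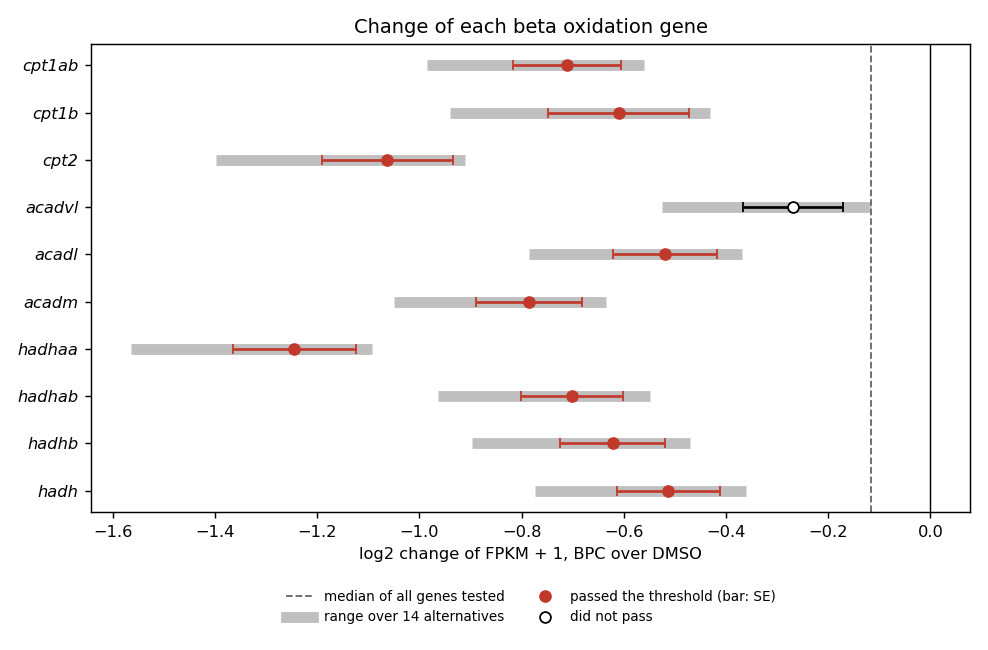
Log2 change of FPKM + 1 in BPC over DMSO for the 10 genes (points, with bars for the SE), the range of the same value over 14 alternative settings (grey bars), and the median of all genes tested (dashed line). The 10 points run from -1.24 (hadhaa) to -0.27 (acadvl), and the 9 filled points passed the threshold.

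Most of these calls were lost when a DMSO library was left out. The lone DMSO library is then assumed to vary like the others, since the spread comes from the BPC pair and from all genes. Without DMSO replicate 1, 2 of the 10 genes passed (hadhaa and cpt2), where 3.57% of all tested genes fell. Without DMSO replicate 3, 3 passed (hadhaa, cpt2 and acadm), where 4.72% fell. The sizes changed little: over both omissions the log2 change of cpt1ab was -0.77 and -0.66, and that of hadh -0.48 and -0.55. Leaving out BPC replicate 1 gave 9 (14.9% over all tested genes), and leaving out BPC replicate 3 gave 9 (21.1%). With pseudocounts of 0.1 and 0.01, 9 and 9 passed (16.0% and 14.8%). With no filter 8 passed (7.5%), with quantile normalization 8 (10.6%), with median centring 8 (10.0%) and with TPM scaling 10 (32.3%). The median gap between libraries of a group was a log2 difference of 0.06 over the 10 genes in BPC and 0.06 in DMSO, and the largest was 0.21 in BPC and 0.11 in DMSO. The same median over all tested genes was 0.17 in BPC and 0.11 in DMSO. The counts of other lists under these settings are to be read against the shares of all tested genes given here.

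The order of the 10 levels differed between the groups mainly at the top. In BPC larvae acadvl was highest, followed by hadhab and acadm, whose libraries overlapped, and then by hadh, acadl, cpt1ab, hadhb, hadhaa, cpt2 and cpt1b, each with both libraries below those of the gene before. In DMSO larvae acadm and hadhab came first, with libraries that overlapped, and acadvl after them. The order below was that of BPC larvae, except that hadhb and hadhaa overlapped in DMSO. Of the summed FPKM of the 10 genes, acadvl made up 20.3 and 19.8% in BPC and 15.4 and 15.3% in DMSO. The share of hadhaa was 3.46 and 3.99% in BPC and 6.21 and 5.97% in DMSO.

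Ratios between genes of a library do not change when all its values are multiplied by a single factor. Of the FPKM of both alpha subunit copies, hadhaa took 16.3 and 19.1% in BPC larvae, against 26.1 and 24.4% in DMSO larvae. The alpha copies together stood at 3.44 and 3.48 times the FPKM of hadhb in BPC and at 3.93 and 3.94 times in DMSO. The ratio of cpt2 to the 3 CPT1 copies was 0.179 and 0.214 in BPC and 0.300 and 0.268 in DMSO. All 3 ratios were lower in both BPC libraries than in both DMSO libraries. The exact two-sided permutation p was 0.333 for each, the smallest that 2 libraries against 2 allow. The direction of these ratios follows from the changes of the single genes in the same libraries, so it is no separate result. The cpt1ab share of the CPT1 copies was 58.1 and 56.7% in BPC and 58.7 and 61.1% in DMSO. This share too was lower in both BPC libraries, with the same exact permutation p of 0.333. The gap between groups was about as wide as that between libraries of a group. Reads shared between copies could shift the split. With hadhaa and hadhab added before the fit, the log2 change was -0.84 (limma adjusted p = 0.00416).

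**Figure D3:**
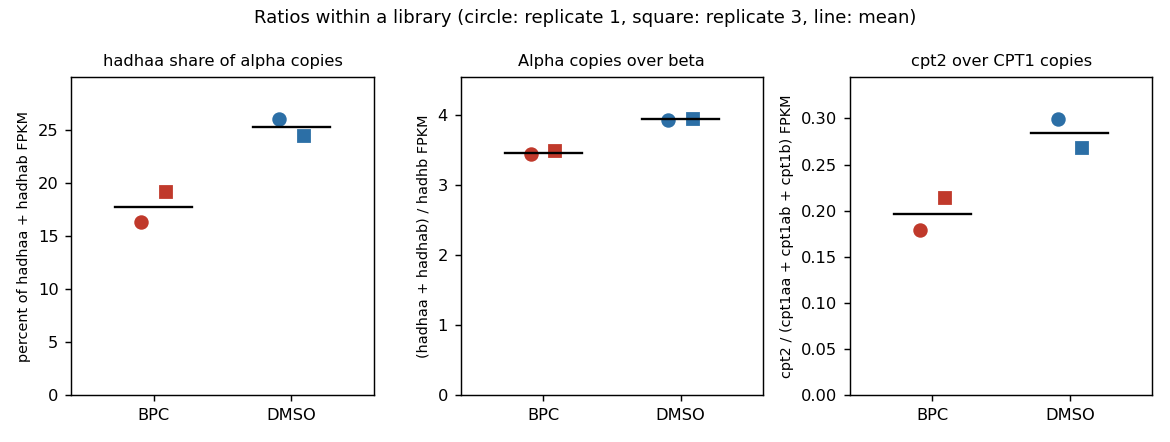
Ratios of FPKM within a library, BPC on the left and DMSO on the right: the hadhaa share of both alpha subunit copies (percent), alpha copies over the beta subunit, and cpt2 over the CPT1 copies, with circles for replicate 1, squares for replicate 3 and a line at the mean. Each ratio is lower in both BPC libraries, for instance 16.3 and 19.1% against 26.1 and 24.4% for hadhaa.

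In the authors' deposited table, 9 of the 10 genes had a q-value under 0.05, where 9.76% of all genes in it were lower with such a q. The largest q among these 9 was 0.0373, for acadl, and the smallest 3.23e-11, for hadhaa, in the authors' deposited table. There acadvl had a q of 0.559. The authors' deposited table marks 2 of the 10, hadhaa and cpt2, as significant (6.44% of all genes were so marked and lower), because its mark needs a q under 0.05 and a log2 change of at least 1 in size, a rule that 0 genes of the table break. Their pathway enrichment compares a single library pair, BPC 3 with DMSO 3. For fatty acid degradation it counts 4 genes of 424, against 43 of 5689 annotated genes (p = 0.4, rank 63 of 135 pathways in the authors' deposited table). The 4 genes were hadhaa, cpt2 and the glutaryl-CoA dehydrogenase genes gcdha and gcdhb, of lysine and tryptophan breakdown.

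Other acyl-CoA dehydrogenases and the chain that takes their electrons were partly lower. Of 11 tested genes (median log2 change -0.63, 13 listed), 7 fell and 0 rose, against 17.5% and 7.06% of all tested genes. The glutaryl-CoA dehydrogenase gene gcdha had 4.84 and 4.98 FPKM in BPC and 9.24 and 11.8 FPKM in DMSO (log2 change -0.95, limma adjusted p = 0.00738). The valine pathway gene acad8 (log2 change -0.68, limma adjusted p = 0.00905) and acad11 (log2 change -0.83, limma adjusted p = 0.0104) fell as well. The short-chain gene acads, named after its values were seen, did not pass (log2 change -0.44, limma adjusted p = 0.0717). Its levels were 11.5 and 15.1 FPKM in BPC and 18.8 and 17.6 FPKM in DMSO. The gene etfdh, whose product passes electrons to ubiquinone, had 17.2 and 18.0 FPKM in BPC and 27.3 and 28.2 FPKM in DMSO (log2 change -0.63, limma adjusted p = 0.00914). The 2 subunits of the flavoprotein before it, picked out after their values were seen, did not pass. Of them, etfa had 50.6 and 48.8 FPKM in BPC and 58.3 and 59.4 FPKM in DMSO (log2 change -0.24, limma adjusted p = 0.122), and passed with TPM scaling (0.0147). For etfb the levels were 77.7 and 72.4 FPKM in BPC and 64.4 and 66.8 FPKM in DMSO (log2 change 0.19, limma adjusted p = 0.219, and -0.06 with TPM scaling). Leaving out DMSO replicate 1 left 1 lower gene in this list, leaving out DMSO replicate 3 left 2, and applying no filter left 4. With no filter 7.5% of all tested genes fell. The acad8 and etfdh calls were lost without either DMSO library, and that of acad11 without DMSO replicate 1.

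Of 7 tested genes for further mitochondrial steps (10 listed), 5 fell and 0 rose, with a median log2 change of -0.52. Of all tested genes, 17.5% fell and 7.06% rose. The enoyl-CoA isomerase genes eci2 and eci1, which move double bonds of unsaturated chains, had log2 changes of -0.72 (limma adjusted p = 0.00885) and -0.53 (0.0194). In FPKM, eci2 had 11.7 and 13.4 in BPC and 20.7 and 22.0 in DMSO. The thioesterase gene acot13 (log2 change -0.95, limma adjusted p = 0.0135), the dehydrogenase gene hsd17b10 (-0.52, 0.0179) and the thiolase gene acaa2 (-0.45, 0.0228) also fell. Of these, acaa2 lies outside the naming rule. The short-chain hydratase gene echs1, likewise named after its values were seen, had 32.4 and 29.5 FPKM in BPC and 36.6 and 31.1 FPKM in DMSO. Its groups overlapped (log2 change -0.12, limma adjusted p = 0.486, and 0.03 with median centring). With DMSO replicate 1 left out 1 of these genes fell, with DMSO replicate 3 left out 0 did, and with median centring 2 did. The gene kept in the first case was acot13. Over all tested genes median centring gave 10.0% lower.

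Peroxisomes oxidize very long and branched chains by routes of their own. Of 16 tested genes there (median log2 change -0.46, 18 listed), 7 fell and 0 rose, against 17.5% and 7.06% of all tested genes. The phytanoyl-CoA hydroxylase gene phyh had 6.18 and 6.76 FPKM in BPC, against 12.4 and 13.6 FPKM in DMSO (log2 change -0.91, limma adjusted p = 0.00513), a call held under all 14 alternatives. The importer gene abcd3a (log2 change -0.61, limma adjusted p = 0.0122) fell, as did the bifunctional enzyme gene ehhadh (-0.77, 0.0292). Leaving out DMSO replicate 1 left 1 of the 16 lower, leaving out DMSO replicate 3 left 3, and leaving out BPC replicate 1 left 3. The abcd3a call was lost without either DMSO library, and that of ehhadh without DMSO replicate 1 or BPC replicate 1. Quantile normalization, median centring and no filter left 2 each, upper quartile scaling 4, and TPM scaling gave 14. Over all tested genes these settings gave 10.6%, 10.0%, 7.5%, 14.1% and 32.3% lower.

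Uptake and activation went both ways. Of 19 tested genes (median log2 change -0.21, 24 listed), 6 fell and 3 rose, against 17.5% and 7.06% of all tested genes. The fatty acid transporter and very-long-chain acyl-CoA synthetase gene slc27a2a had 83.4 and 104 FPKM in BPC and 31.9 and 20.6 FPKM in DMSO (log2 change 1.82, SE 0.21, limma adjusted p = 0.00418), and its call held under all 14 alternatives. The other genes that rose, acsl2 (log2 change 0.84, limma adjusted p = 0.0127) and acsl4a (0.41, 0.0464), code for acyl-CoA synthetases and lie outside the naming rule. The acsl4a call was lost under 8 of 14 alternatives. Among the genes that fell, the scavenger receptor gene cd36 had 1.01 and 1.65 FPKM in BPC and 4.33 and 3.35 FPKM in DMSO (log2 change -1.06, limma adjusted p = 0.0121). Leaving out DMSO replicate 1 ended the cd36 call. The intestinal binding protein gene fabp2 had 34.6 and 32.1 FPKM in BPC and 50.3 and 56.4 FPKM in DMSO (log2 change -0.66, limma adjusted p = 0.0107). The ileal gene fabp6 was listed at 0 and 0.268 FPKM in BPC and at 6.04 and 2.51 FPKM in DMSO (limma adjusted p = 0.00766). The muscle and heart gene fabp3, named after its values were seen, had 269 and 203 FPKM in BPC and 161 and 183 FPKM in DMSO, and did not pass (log2 change 0.44, limma adjusted p = 0.0949). It passed without BPC replicate 3 and with median centring (smallest adjusted p 0.0127). The lower genes fabp6 and acsbg1 were under 0.5 FPKM in both BPC libraries. They thus passed the filter (0.5 FPKM in 2 libraries) only through DMSO, and could only come out lower. With a DMSO library left out, fabp6 and acsbg1 were not tested. The fabp2 and acsl2 calls were lost without either DMSO library. With TPM scaling 10 fell, where 32.3% of all tested genes did. With median centring 5 rose, where 2441 of all 19873 tested genes did.

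Among 29 tested pathway regulators (median log2 change -0.27, 30 listed), 10 fell and 3 rose, against 17.5% and 7.06% of all tested genes. The coactivator genes ppargc1a and ppargc1b and the nuclear receptor gene esrra, which in mammals drive beta oxidation genes, were among those that fell. The level of ppargc1a was 2.35 and 3.78 FPKM in BPC and 6.40 and 6.52 FPKM in DMSO (log2 change -0.90, limma adjusted p = 0.0187). That of ppargc1b changed by -0.57 (limma adjusted p = 0.0203), and both genes were chosen after their values were seen. The ppargc1a call was lost with no filter (limma adjusted p = 0.06) and that of ppargc1b with median centring (0.0505). Both calls were also lost without either DMSO library. For esrra the levels were 4.80 and 4.72 FPKM in BPC and 7.73 and 8.60 FPKM in DMSO (log2 change -0.67, limma adjusted p = 0.0123). The energy sensor kinase gene prkaa2 (log2 change -0.83, limma adjusted p = 0.00895) and the corepressor gene nrip1a (-0.61, 0.0156) fell too. The corepressor restrains oxidation genes in mammals, and the members that fell thus include activators and a repressor. The pyruvate dehydrogenase kinase gene pdk2b had 5.37 and 4.54 FPKM in BPC, against 1.89 and 1.23 FPKM in DMSO (log2 change 1.23, SE 0.17, limma adjusted p = 0.00627). The fatty acid receptor gene pparaa (0.64, 0.0344) and the uncoupling protein gene ucp1 (0.89, 0.0257) rose as well, both outside the naming rule, and both calls were lost with no filter, with TPM scaling and without DMSO replicate 1. The pparaa call was also lost without DMSO replicate 3 or BPC replicate 1. The other copy of that receptor gene, pparab, was named after its values were seen. Its levels were 0.511 and 0.752 FPKM in BPC and 0.961 and 1.24 FPKM in DMSO. Both BPC libraries of pparab were thus lower, but it did not pass (log2 change -0.37, limma adjusted p = 0.123). In the absence of DMSO replicate 1, 0 regulators fell and 1 rose, and in that of DMSO replicate 3, 1 fell (prkaa2) and 2 rose. The pdk2b call held under all 14 alternatives. With TPM scaling 17 fell and 1 rose, with quantile normalization 6 fell, with median centring 4 fell, and with no filter 4 fell and 1 rose. Over all tested genes these settings gave 32.3%, 10.6%, 10.0% and 7.5% lower.

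Of 7 tested ketone body genes (median log2 change -0.09, 9 listed), 2 fell and 0 rose, against 17.5% and 7.06% of all tested genes. The ketone-using transferase gene oxct1b had 11.1 and 11.0 FPKM in BPC and 15.4 and 15.4 FPKM in DMSO (log2 change -0.45, limma adjusted p = 0.0258). Its other copy oxct1a, named after its values were seen, had 11.3 and 9.89 FPKM in BPC and 10.3 and 12.5 FPKM in DMSO. The oxct1a groups overlapped and it did not pass (log2 change -0.09, limma adjusted p = 0.646). The thiolase gene acat1 had 9.93 and 11.0 FPKM in BPC and 14.1 and 14.2 FPKM in DMSO (log2 change -0.40, limma adjusted p = 0.0421). The acat1 call was lost under 9 of 14 alternatives, with the replicate block among them (adjusted p = 0.0633). With either DMSO library left out 0 of the 7 passed, as with median centring. With no filter, quantile normalization, upper quartile scaling, the replicate block, no intensity trend or without BPC replicate 1, 1 passed.

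**Figure D4:**
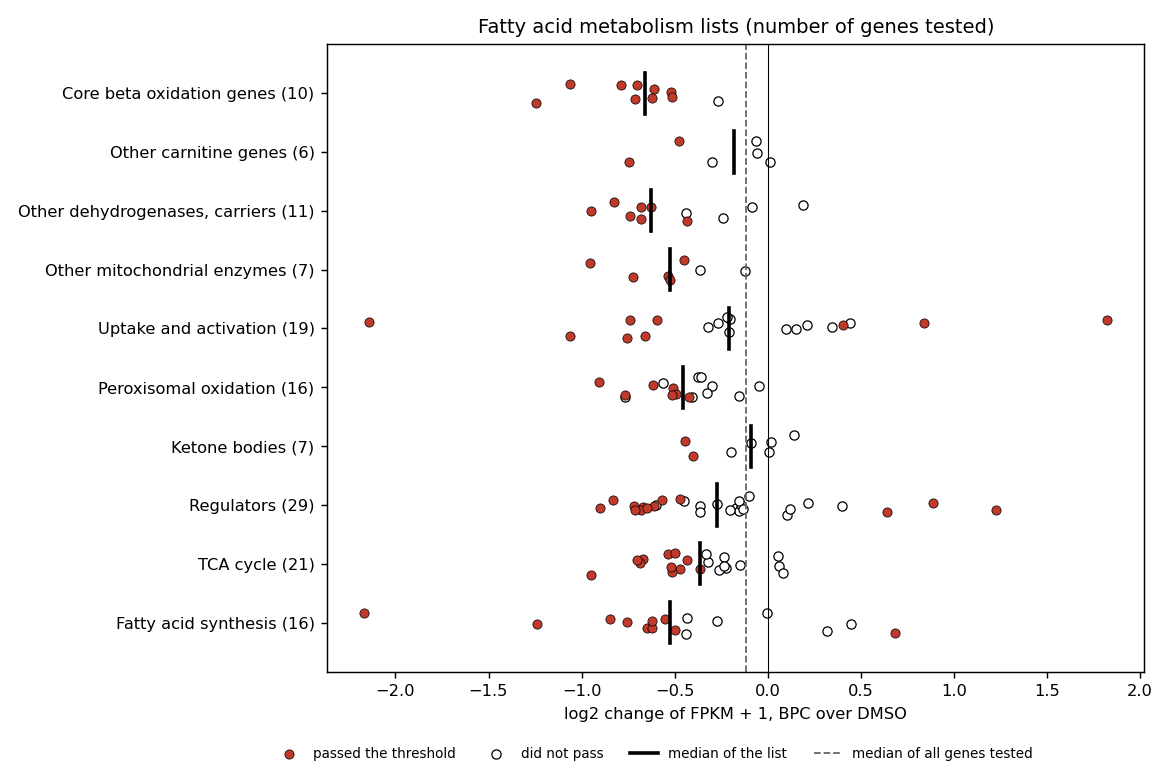
Log2 change of FPKM + 1 in BPC over DMSO for each tested gene of the core beta oxidation genes and of 9 further fatty acid metabolism lists, with filled points for genes past the threshold, a bar at each list's median and a dashed line at the median of all genes. The list medians run from -0.66 for the core genes to -0.09 for ketone body genes, and the uptake and activation list spreads on both sides of 0.

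Tissue marker lists moved in different directions beside the beta oxidation genes. The skeletal muscle list was not split into oxidative and other muscle. Over all tested genes, 17.5% fell and 7.06% rose. Of 19 tested skeletal muscle markers, 2 fell (actn3b and atp2a1l, named after their values were seen) and 0 rose, with sums of 25652 and 19873 FPKM in BPC and 21424 and 19542 FPKM in DMSO. Of 11 cardiac markers, 0 fell and 5 rose, with sums of 341 and 270 FPKM in BPC and 222 and 228 FPKM in DMSO. In the cardiac list, actc1a made up most of each sum and did not pass. It had 236 and 173 FPKM in BPC and 171 and 168 FPKM in DMSO. The median log2 changes of these lists were 0.08 and 0.37, and without BPC replicate 1, which had the highest skeletal muscle sum, 6 skeletal muscle markers fell. Of 16 hepatocyte markers, 6 fell and 0 rose. Their log2 changes ran from -3.82 (fabp10a) to 0.26 (c9), with a median of -0.32. The list summed to 2064 and 2291 FPKM in BPC and 3064 and 2776 FPKM in DMSO. Most of each sum came from apoa2, which did not pass (1344 and 1477 FPKM in BPC, 1820 and 1655 FPKM in DMSO). In this list only cpn1 was at 0 in a library. The lower genes gc and tdo2a were under 0.5 FPKM in both BPC libraries. These passed the filter (0.5 FPKM in 2 libraries) only through DMSO, and could only come out lower. Of 11 pronephric tubule markers, 6 fell and 0 rose (median -0.67), with sums of 42.4 and 40.9 FPKM in BPC and 86.9 and 81.4 FPKM in DMSO. Of 13 enterocyte markers, 9 fell and 1, apobb.1, rose (median -0.66). Of those that fell, chia.2, slc15a1b, anpepb, cubn and fabp6 were under 0.5 FPKM in both BPC libraries. They passed the filter only through DMSO, so they could only come out lower. The log2 changes of this list ran from -2.59 (vil1) to 0.62 (apobb.1). The brush border gene vil1 had 0.201 and 0.593 FPKM in BPC and 7.98 and 6.68 FPKM in DMSO. The enterocyte list summed to 3471 and 3327 FPKM in BPC and 2553 and 2482 FPKM in DMSO. Most of that sum came from the lipoprotein gene apoa1a, with 2797 and 2701 FPKM in BPC and 1911 and 1955 FPKM in DMSO, which did not pass. The gene fabp6, which with fabp2 is also in the uptake list, was at 0 in a BPC library. The lower gene cubn is in both the enterocyte and the pronephric tubule list, so these counts share it. Of 12 neuron markers, 9 fell and 0 rose (median -0.84), with sums of 374 and 485 FPKM in BPC and 722 and 681 FPKM in DMSO. Of 10 erythroid markers, 7 rose and 0 fell (median 1.27), with sums of 4678 and 4767 FPKM in BPC and 1800 and 1756 FPKM in DMSO. The part of these shifts in the lower beta oxidation transcripts was not tested.

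Some of these marker counts rest on single libraries, and the counts over all tested genes moved under the same settings too. Without BPC replicate 3, 8 skeletal muscle markers rose. Quantile normalization gave 5 lower skeletal muscle markers, and no filter and median centring 1 each. Over all tested genes these settings gave 10.6%, 7.5% and 10.0% lower. Applying no filter also left 2 higher cardiac markers, 3 lower pronephric tubule markers and 4 lower neuron markers. With a DMSO library left out, markers under 0.5 FPKM in both BPC libraries dropped below the filter and were not tested. Among the lower markers these were gc and tdo2a in the hepatocyte list, and chia.2, slc15a1b, anpepb, fabp6 and cubn in the enterocyte list. How their calls depend on a DMSO library was therefore not tested. Some calls of higher cardiac markers were lost without either DMSO library. Leaving out DMSO replicate 1 left 2 lower pronephric tubule markers and 3 lower neuron markers. The apobb.1 call was lost without either DMSO library, with no filter, and with TPM scaling or quantile normalization.

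**Figure D5:**
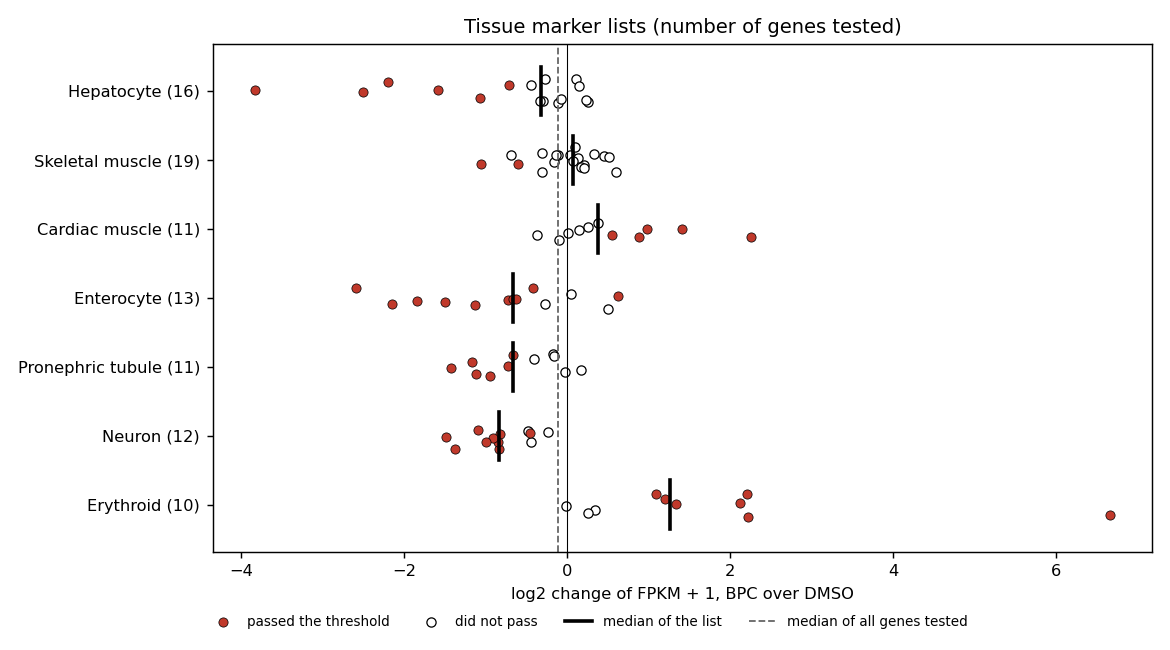
Log2 change of FPKM + 1 in BPC over DMSO for each tested marker of 7 tissues, with filled points for genes past the threshold, a bar at each list's median and a dashed line at the median of all genes. Skeletal and cardiac muscle medians lie at 0.08 and 0.37, those of hepatocyte, enterocyte, pronephric tubule and neuron markers between -0.84 and -0.32, and that of erythroid markers at 1.27.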

How the data were processed

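Polyadenylated RNA was made into dUTP-marked paired-end libraries, per the labels' protocols. Tools listed in the submitters' processing notes, without their roles, are edgeR, DESeq2, StringTie 1.3.4d, HISAT2 2.0.4 and cutadapt 1.9. The authors deposited FPKM per gene and library, with a ratio of group means, its log2, a p-value and a q-value, per the file headers. Genome build, annotation, read numbers and use of strand are each not given in the sources used here. Reads of overlapping genes may therefore be mixed. No common step was found in the low FPKM values, so read counts were not recovered.

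Genes with at least 0.5 FPKM in 2 libraries were tested with limma 3.58.1 (R 4.3.3) on log2(FPKM + 1), group as the only term, intensity trend, no robust fit, Benjamini-Hochberg adjustment over all 19873 genes, threshold 0.05, two-sided. Log2 changes on this scale understate those of low genes. The members and lists were chosen with earlier results of these data known. Of 264 list symbols, 243 were matched. Named were the 10 members, cpt1aa and, per list, up to 4 called genes with the smallest p. Some genes that this rule picks are not reported here. One symbol, dld, was dropped from the TCA list after values were seen, because it names a Notch ligand. Alternatives were 2 pseudocounts (0.1 and 0.01), 2 filters (none, and 1 FPKM), 4 scalings, each library left out, the replicate block, no intensity trend and summed copies. With TPM scaling the filter was applied to the scaled values. With a library left out it still asked for 2 libraries. Genes under 0.5 FPKM in both BPC libraries passed it only through DMSO and could only come out lower. They were untested once a DMSO library was left out. Lower genes of this kind, named after their values were seen, also included ogdhl (TCA cycle) and elovl2 (fatty acid synthesis). The 10 beta oxidation genes all lay above 0.5 FPKM.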

Additional observations from a re-analysis of the deposited data

How the results depend on the processing

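All 10 beta oxidation genes stayed lower under each of 14 alternatives (log2 changes from -1.56 to -0.12). Of 9 calls, hadhaa and cpt2 held throughout, and acadm was lost without DMSO replicate 1 (adjusted p = 0.0537). Another 6 were lost without either DMSO library (adjusted p from 0.0514 to 0.161), and cpt1b also as given above. Leaving out a library each gave 2 to 9 lower beta oxidation genes, 329 to 2097 higher genes and 675 to 4146 lower genes over all tested genes. With no filter 748 genes were higher and 2020 lower. Median centring gave 2441 and 1997, TPM scaling 737 and 7158, and quantile normalization 2111 lower genes. The share of lower genes among all calls was 71.3% as reported, 52.0% with quantile normalization, 45.0% with median centring and 90.7% with TPM scaling. These settings gave 8, 8 and 10 lower beta oxidation genes. The sign of slc25a20 (0.089) and echs1 (0.028) turned with median centring and that of etfb (-0.060) with TPM scaling. The causes were not tested.

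Libraries of a number did not deviate together (correlation 0.01 across genes), and nothing in the labels pairs them. The replicate block gave 1333 higher and 3282 lower genes and left 9 of the 10 beta oxidation genes lower. Among other genes given here on which it was run, it ended the calls of acsl4a and acat1. Of the 22 list counts above 0, 21 moved by over 1.5 times without DMSO replicate 1, 18 without DMSO replicate 3, 11 with median centring and 13 with no filter. Over all 14 alternatives 95 of 308 did. Without a DMSO library, some lower genes of these lists were not tested at all, as given above. Read depth is unknown, so the precision of genes at low FPKM, such as cpt1b, cannot be given from counts.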

Other observations

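Steps on either side of beta oxidation also differed. Of 21 tested genes in the TCA cycle list (25 listed), 11 fell and 0 rose, with a median log2 change of -0.36. Of all tested genes, 17.5% fell and 7.06% rose. The 11 include the cytosolic malate dehydrogenase genes mdh1aa and mdh1ab. The mitochondrial gene mdh2 did not pass (log2 change -0.23, limma adjusted p = 0.2). Both mdh2 and mdh1aa were named after their values were seen. The isocitrate dehydrogenase gene idh3b had 37.0 and 34.2 FPKM in BPC, against 58.0 and 56.5 FPKM in DMSO (log2 change -0.67, SE 0.10, limma adjusted p = 0.00802). The succinate dehydrogenase gene sdhb (log2 change -0.70, limma adjusted p = 0.00853) and the cytosolic malate dehydrogenase gene mdh1ab (-0.68, 0.00755) fell too. These 3 calls were lost without either DMSO library. Leaving out either DMSO library left 1 lower TCA gene. With median centring 7 fell (10.0% over all tested genes), and with TPM scaling 17 (32.3%).

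Of 16 tested genes of fatty acid synthesis and desaturation (20 listed), 9 fell and 1 rose, with a median log2 change of -0.52. Of all tested genes, 17.5% fell and 7.06% rose. The elongase gene elovl4b, which in mammals makes the very long chains of retinal lipids, had 4.71 and 9.47 FPKM in BPC and 35.5 and 32.0 FPKM in DMSO (log2 change -2.17, SE 0.27, limma adjusted p = 0.0046). The lipid synthesis regulator gene srebf1 had 2.92 and 2.88 FPKM in BPC and 5.99 and 6.07 FPKM in DMSO (log2 change -0.85, limma adjusted p = 0.00627). Both calls held under all 14 alternatives. The desaturase gene fads2 fell (log2 change -1.24, limma adjusted p = 0.0154), a call lost with no filter and without DMSO replicate 1. The elongase gene elovl7a rose, with 18.4 and 19.0 FPKM in BPC and 11.5 and 11.0 FPKM in DMSO (log2 change 0.68, limma adjusted p = 0.00782), a call lost without either DMSO library. In this list 2 genes fell with DMSO replicate 1 left out, 3 with DMSO replicate 3 left out, and 5 with no filter.

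The deposited annotation places 9 of the 10 beta oxidation genes, all but cpt1b, in fatty acid degradation. Of the 34 other genes it places there, all tested, 15 fell and 3 rose, with a median log2 change of -0.34. Of all tested genes, 17.5% fell and 7.06% rose. Alternatives for this list were added after its values were seen. Lower genes then numbered 1 without DMSO replicate 1, 3 without DMSO replicate 3, 8 without BPC replicate 1, 7 with no filter, 7 with quantile normalization and 4 with median centring. No filter, quantile normalization and median centring gave 7.5%, 10.6% and 10.0% lower over all tested genes. The 3 that rose, chosen for naming after their values were seen, were adh5 (81.6 and 69.5 FPKM in BPC, 44.9 and 41.9 FPKM in DMSO), aldh9a1a (152 and 160 FPKM in BPC, 110 and 98.1 FPKM in DMSO) and acsl4a, whose products act on alcohols, aldehydes and arachidonic acid. With either DMSO library left out 0 genes of this list rose, and with TPM scaling 1, adh5, did.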
